A study of Mus musculus with 12 samples.

Results

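Astrocyte identity and reactivity genes were examined as 2 groups of named genes, 32 in all, read in each of 12 mouse brain RNA libraries. The first group holds 15 genes by which astrocytes are recognised (Aqp4, Aldh1l1, Slc1a2, Slc1a3, Gja1, Gjb6, Aldoc, Sox9, Slc4a4, Mlc1, Gli3, Acsbg1, Fgfr3, Ntsr2 and S100b). The second holds 17 genes that reactive astrocytes are known to raise (Gfap, Vim, Lcn2, Serpina3n, Osmr, Cp, Steap4, S1pr3, Timp1, Cd44, Ggta1, Amigo2, Emp1, Cd109, Tm4sf1, Sphk1 and Ptx3). The genes were listed by symbol, and the list was chosen with earlier results of these data known. All 32 were found among the 43629 gene IDs of the count table, and all 32 passed the filter on low counts, which kept 19145 genes.

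Mice were injected into the cerebral ventricles as newborns and their brains were taken at 3 months of age. The 4 groups, of 3 libraries each, are females and males given phosphate-buffered saline (PBS) and females and males given rAAV, a recombinant virus of the adeno-associated kind used to carry genes into cells, that encodes a collagen domain construct, which the series title ties to C1qTNF3, a secreted protein. The mouse strain is not given in the labels. A virus without the construct is not among the groups, so the construct and the virus that carried it cannot be told apart. The labels do not say that each library came from a separate mouse, so p-values measure the spread between these libraries.

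Astrocytes tile the whole brain. They clear glutamate from synapses, buffer potassium and water at their endfeet on vessels, share metabolites through gap junctions and supply neurons with energy substrates. After injury, infection or inflammation they turn reactive: they raise intermediate filaments such as Gfap and, through cytokine receptors that signal to the transcription factor STAT3, a set of secreted and surface proteins. Astrocytes also differ by region, and Bergmann glia, the specialised astrocytes of the cerebellum, and fibrous astrocytes of white matter differ in their gene expression from those of cortical grey matter.

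Before the results, 5 libraries have to be set apart because their reads went against a label. C1qtnf3, the gene whose domain was delivered, had 1071 reads in PBS female 2 and 2675 in PBS male 1, against 12 to 28 in the other 4 PBS libraries. It had 23 reads in collagen domain female 1 and 8 in collagen domain female 3, against 2612 to 4966 in the other 4 collagen domain libraries. Xist and Ddx3y went against the sex label in 4 libraries: PBS female 2 and male 1, and collagen domain female 1 and male 3. Groups are named by their labels throughout, and each treatment result was also fitted without these libraries. Totals ranged from 39272127 to 52323985 reads per library.

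Promoters of the members were read from RefSeq windows of 250 bases before to 50 after each start (GRCm38.p6), which were found for 29 of the 32 genes. Motifs of 3 kinds were searched on both strands: TTCNNNGAA, the palindrome that STAT factors are known to bind, the full NFI-type palindrome and ACAAAG of the SOX type. TTCNNNGAA was present in 8 of the 29 members (27.6%), and 9.55% of all 27025 genes with such windows held it. A gene can have more than 1 window. Counted by window it was in 23.7% of 38 member windows and 8.30% of all 32851. ACAAAG was present in 2 members, Cp and Timp1 (6.90%), against 21.0% of all genes, and the NFI-type palindrome in 0 members and in 12 genes of the whole table. The stretches around the motif in Gfap, Slc1a3, Acsbg1 and Aldoc are shown because these 4 members also did not overlap between libraries of different tissue makeup, as described further on. The other 4 genes that held the STAT-type palindrome are Emp1, Ntsr2, Sphk1 and Steap4. Genes with this palindrome thus came from both groups: Acsbg1, Aldoc, Ntsr2 and Slc1a3 are identity genes and the rest are reactivity genes.

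Each stretch is given 5′ to 3′ on the strand of the gene, with the palindrome in capitals.
Gfap (chr11:102897171-102897262, minus strand, GRCm38.p6): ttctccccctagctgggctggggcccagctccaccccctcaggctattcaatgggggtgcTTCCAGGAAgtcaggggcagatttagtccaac
Slc1a3 (chr15:8710865-8710963, minus strand, GRCm38.p6): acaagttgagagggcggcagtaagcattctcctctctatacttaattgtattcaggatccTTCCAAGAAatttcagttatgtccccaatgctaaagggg
Acsbg1 (chr9:54661873-54661971, minus strand, GRCm38.p6): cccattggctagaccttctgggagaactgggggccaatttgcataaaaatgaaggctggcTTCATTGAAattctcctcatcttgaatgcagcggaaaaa
Aldoc (chr11:78324014-78324112, plus strand, GRCm38.p6): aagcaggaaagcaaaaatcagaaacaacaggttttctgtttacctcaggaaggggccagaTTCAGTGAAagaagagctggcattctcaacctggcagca
Aldoc (chr11:78324055-78324153, plus strand, GRCm38.p6): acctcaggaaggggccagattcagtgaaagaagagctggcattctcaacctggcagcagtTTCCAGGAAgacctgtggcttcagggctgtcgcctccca

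In Gfap the palindrome runs across the annotated start, from base -2. In Acsbg1 it begins at base -26 and in Slc1a3 at base -96, counted from the start. Aldoc held it at 2 places, from bases -124 and -83, and its 2 stretches overlap. A match describes the letters of the window, and binding was not measured.

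All 15 identity genes were expressed in every library. Values are CPM, read counts scaled to library size, with sizes adjusted by TMM, the trimmed mean of M values. To compare genes with each other, CPM were divided by the length of each gene's exons in kilobases. On that scale Aldoc, a glycolytic enzyme of astrocytes, was highest at 211 ± 37.0 CPM per kb (SD, n = 12). Next came Slc1a2, the main glutamate transporter of the forebrain, at 133 ± 15.4, and S100b, a calcium-binding protein that oligodendrocytes also make, at 125 ± 32.9. Slc1a2 and S100b differed by less than their spread.

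Slc1a3, the glutamate transporter that Bergmann glia carry in quantity, stood at 62.6 ± 7.80 CPM per kb and Mlc1, a membrane protein of the endfeet, at 59.4 ± 3.33, again within their spread of each other. Gfap, the intermediate filament of reactive and white matter astrocytes, followed at 49.98 ± 19.5. Aqp4, the water channel of the endfeet, was at 29.2 ± 6.46 CPM per kb and Aldh1l1, a folate enzyme used as a general astrocyte marker, at 9.03 ± 0.845. Gli3, a transcription factor of hedgehog signalling, was the lowest identity gene at 0.876 ± 0.0844.

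Reactivity genes other than Gfap were low. Vim, a second intermediate filament, was at 8.94 ± 2.22 CPM per kb and Serpina3n, a secreted protease inhibitor, at 8.12 ± 1.91, a difference within their spread. Steap4, a metalloreductase, was the lowest of the 32 members at 0.103 ± 0.0396 and Ptx3, a secreted pattern recognition protein, was next at 0.131 ± 0.0437. Steap4, Ptx3 and Timp1, an inhibitor of metalloproteases, had 7 to 27 reads per library, and Lcn2, a secreted iron carrier protein, had 5 to 265, so their values carry a large counting error.

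Reactivity genes varied more between the 12 libraries than identity genes, though the groups were not matched for level and most reactivity genes had fewer reads. The median SD of log2 CPM was 0.17 over the identity genes, 0.32 over the reactivity genes and 0.19 over all genes tested. Mlc1 had the narrowest range from lowest to highest library, 0.26 on the log2 scale, followed by Gja1, the connexin 43 gap junction protein, at 0.31, and Amigo2, an adhesion protein, at 0.32. Among members with a mean of 1 CPM or more, the widest ranges belonged to Gfap (1.66), Osmr (1.39), S100b (1.13), Cd44 (1.12) and Serpina3n (1.09). Lcn2, with a lower mean, spanned 5.48.

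**Figure D1:**
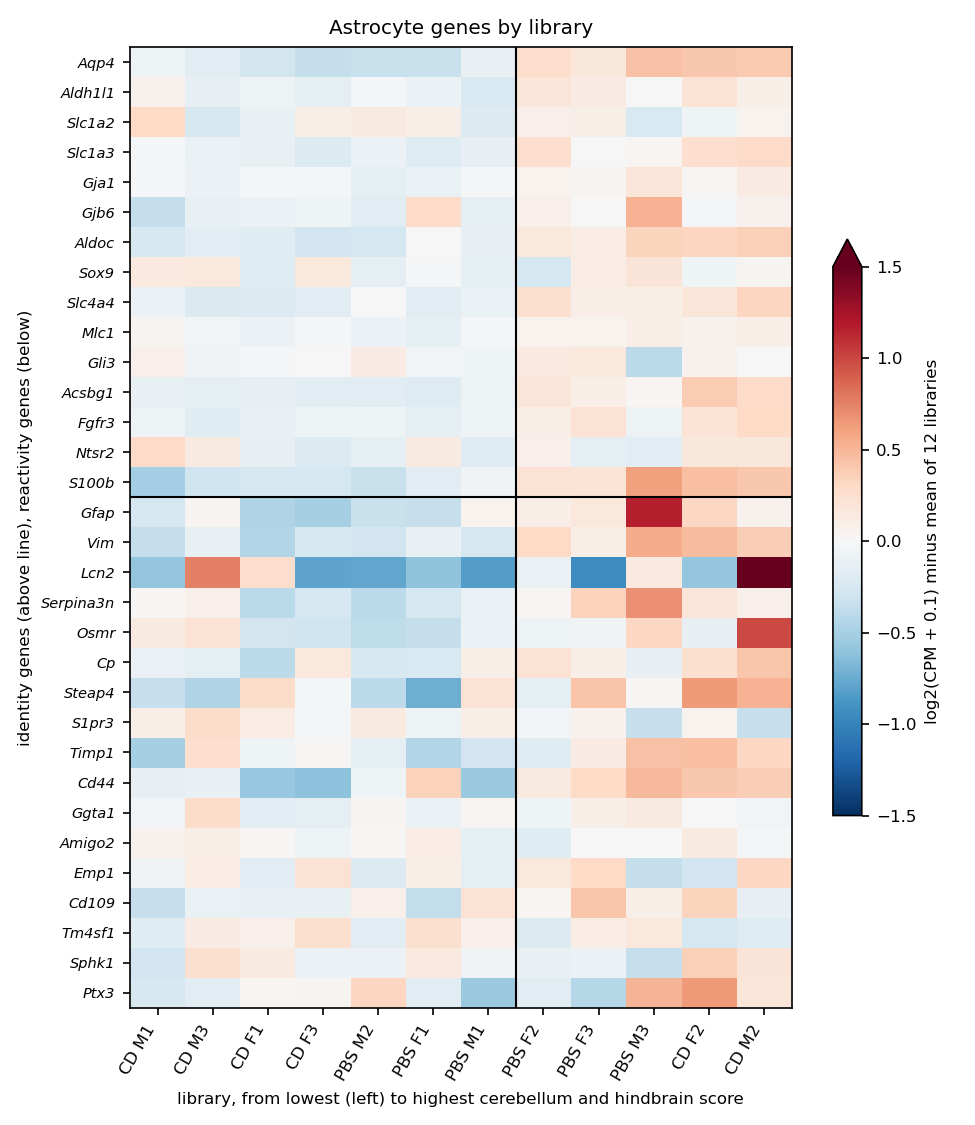
Each row is a gene and each column a library (CD, collagen domain; F, female; M, male, by label), ordered by a score of cerebellum and hindbrain genes, and colour gives log2 CPM minus the gene's mean over 12 libraries. Aqp4, S100b and Vim are higher in the 5 libraries right of the vertical line, while Gfap in PBS M3 and Lcn2 and Osmr in CD M2 stand out in 1 library each, with Lcn2 there beyond the colour scale.

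The tissue in the libraries was not the same. The labels speak both of a hemibrain, as frozen, and of forebrain, as the source of RNA. Genes of the cerebellum and hindbrain were abundant in 5 libraries: collagen domain female 2 and male 2, PBS females 2 and 3 and PBS male 3. Gabra6, a receptor subunit of cerebellar granule cells, was at 58.4 to 149 CPM in these 5 and at 0 to 0.940 in the other 7. The mean log2 CPM of 11 such genes, none of them a member, was 2.69 to 3.43 above the mean of all libraries in the 5 and below it in the other 7. PBS male 1 lay near the mean (-0.17), with Slc6a5, a glycine transporter of the brainstem and spinal cord, at 13.7 CPM. Both treatments are on both sides of this split. The split follows tissue markers and no label, so the values across it are a description with no test. In bulk tissue, more cells of a type and more RNA per cell cannot be told apart.

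The split divided the members unevenly: 10 identity and reactivity genes were higher in all 5 libraries rich in cerebellum and hindbrain genes (the high libraries) than in all 7 others (the low libraries), and 0 were lower. These are Aqp4, Slc1a3, Gja1, Aldoc, Slc4a4, Mlc1, Acsbg1 and S100b of the identity genes and Gfap and Vim of the reactivity genes. Of all 19145 genes tested, 5.06% were higher without overlap and 2.79% were lower. Gfap was barely apart, at 209.6 CPM in the lowest high library and 208 in the highest low one, and its groups overlapped when no filter was applied. Those of Mlc1 overlapped with relative log expression factors in place of TMM.

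S100b had the widest gap between the sides. It was at 159.9, 210.4 and 208 CPM in the PBS females, 150.03, 247 and 149.97 in the collagen domain females, 174, 143 and 277 in the PBS males and 127, 238 and 146 in the collagen domain males. Its mean was 149.98 ± 14.6 CPM (SD, n = 7) in the low libraries and 236 ± 28.6 (SD, n = 5) in the high ones, with no overlap. Aqp4 was at 141, 214 and 200.2 CPM in the PBS females, 147, 235 and 138 in the collagen domain females, 165, 142 and 241 in the PBS males and 168, 233 and 158 in the collagen domain males. The mean was 151 ± 12.3 CPM (SD, n = 7) in the low libraries and 225 ± 17.1 (SD, n = 5) in the high ones, so that every high library lay above every low one for both genes. Vim was at 38.3, 50.7 and 44.4 CPM in the PBS females, 30.3, 57.4 and 35.0 in the collagen domain females, 34.4, 33.9 and 60.6 in the PBS males and 32.3, 53.3 and 38.3 in the collagen domain males. Its mean was 34.7 ± 2.93 CPM (SD, n = 7) in the low libraries and 53.3 ± 6.25 (SD, n = 5) in the high ones, and the groups did not overlap, with PBS male 3 highest.

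The next 3 genes by gap were Acsbg1, Aldoc and Slc4a4. Acsbg1, a fatty acid activating enzyme, was at 124, 160.2 and 151 CPM in the PBS females, 129.8, 184 and 126 in the collagen domain females, 134, 127 and 144 in the PBS males and 131, 172 and 127 in the collagen domain males. Its 7 low libraries lay within a narrow band, and the mean was 128 ± 3.39 CPM (SD, n = 7) in the low libraries and 162 ± 15.8 (SD, n = 5) in the high ones. Aldoc, which Purkinje neurons of the cerebellum also make, was at 677, 761 and 731 CPM in the PBS females, 597, 851 and 555 in the collagen domain females, 622, 565 and 857 in the PBS males and 573, 867 and 603 in the collagen domain males. The mean was 599 ± 41.4 CPM (SD, n = 7) in the low libraries and 813 ± 63.0 (SD, n = 5) in the high ones, without overlap. Slc4a4, a sodium bicarbonate cotransporter, was at 190.1, 251 and 229 CPM in the PBS females, 185, 241 and 189.7 in the collagen domain females, 199, 213 and 227 in the PBS males and 201, 266 and 184 in the collagen domain males. It averaged 195 ± 10.5 CPM (SD, n = 7) in the low libraries and 243 ± 16.4 (SD, n = 5) in the high ones, and collagen domain male 2 was highest.

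The glutamate transporters had different patterns. Slc1a3 was at 466, 630.0 and 534 CPM in the PBS females, 492, 632 and 461 in the collagen domain females, 487, 502 and 542 in the PBS males and 524, 650.1 and 496 in the collagen domain males. It averaged 489.8 ± 21.4 CPM (SD, n = 7) in the low libraries and 598 ± 55.0 (SD, n = 5) in the high ones and did not overlap. Slc1a2 was at 1858, 1827 and 1849 CPM in the PBS females, 1609, 1664 and 1838 in the collagen domain females, 1502, 1895 and 1483 in the PBS males and 2139, 1795 and 1465 in the collagen domain males. It averaged 1758 ± 243 CPM (SD, n = 7) in the low libraries and 1724 ± 152 (SD, n = 5) in the high ones, and both the lowest and the highest library were among the 7 low ones.

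Aldh1l1 was at 38.1, 45.9 and 44.4 CPM in the PBS females, 38.6, 46.9 and 37.1 in the collagen domain females, 34.7, 40.2 and 40.8 in the PBS males and 42.3, 43.1 and 37.2 in the collagen domain males. It averaged 38.3 ± 2.43 CPM (SD, n = 7) in the low libraries and 44.2 ± 2.42 (SD, n = 5) in the high ones, with an overlap between collagen domain male 1 and PBS male 3. Fgfr3, a growth factor receptor, and Gjb6, the connexin 30 gap junction protein, also overlapped, at means of 94.1 and 113 CPM and of 56.8 and 66.3 CPM in low and high libraries. Close to level were 3 others: Sox9, a transcription factor of glial fate, averaged 21.7 and 21.9 CPM, Gli3 8.40 and 8.40, and Ntsr2, a neurotensin receptor of astrocytes, 69.1 and 70.8.

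**Figure D2:**
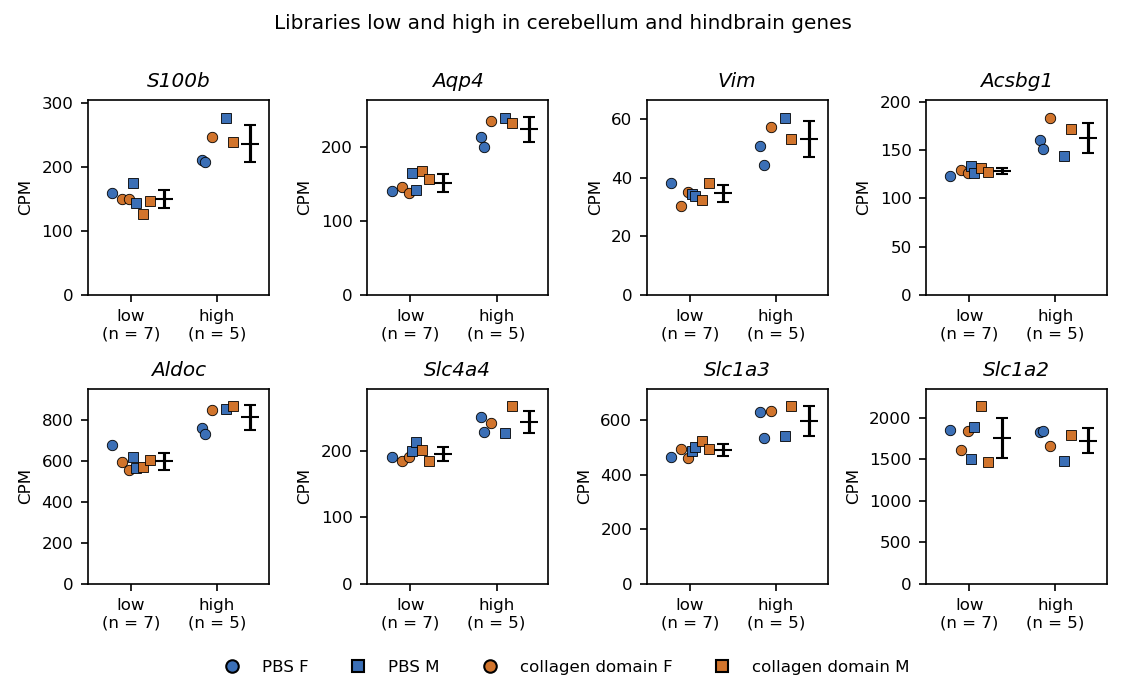
CPM (y axis) of 8 members in the 7 libraries low and the 5 libraries high in cerebellum and hindbrain genes (x axis), with 1 point per library, coloured by treatment label and shaped by sex label, and black bars at the mean ± SD. In 7 of the panels every high library lies above every low one, and in the Slc1a2 panel the groups overlap.

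Spread within each side of the split was compared with that over all libraries. Within the 7 low libraries the SD of log2 CPM was below 50% of that over all 12 for 8 of 15 identity genes and 3 of 17 reactivity genes, against 9.37% of all genes tested. A difference across the split itself widens the SD over all 12, so these counts are not independent of the members found apart. The median SD within the low libraries was 0.09 for identity and 0.19 for reactivity genes, beside 0.14 for all genes. Within the 5 high libraries these medians were 0.135, 0.266 and 0.173.

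Astrocyte genes outside the 32 were read from a list of 30. In that list 7 (23.3%) were higher without overlap in the high libraries and 1 (3.33%) was lower. Over all genes tested these shares were 5.06% and 2.79%, so the share of lower genes is near that of all genes. Gpr37l1, an orphan receptor, was at 131 to 147 CPM in the low and 175 to 204 in the high libraries. Fabp7, a fatty acid binding protein and the 1 that was lower, was at 44.5 to 83.5 and 27.9 to 40.2 CPM. Of 9 genes known to differ between astrocytes of different regions, 4 were higher without overlap (Agt, Gdf10, Slc6a9 and Sparc) and 1 was lower. Gdf10, a growth factor, ranged from 5.37 to 6.66 CPM in the low and from 11.8 to 27.9 in the high libraries.

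Markers of oligodendrocytes, the myelin-forming cells, were higher on the same side of the split. Their 10 genes summed to 5338 to 6079.7 CPM in the low and 6656 to 7619 in the high libraries, none of them was at 0, and 4 of the 10 were higher without overlap, Mbp, a myelin protein, among them, beside the 5.06% of all genes. The 10 meningeal fibroblast markers, none at 0, summed to 102 to 143 CPM in the low and 126 to 176 in the high libraries, which overlap, and 1 of them was higher without overlap. The part of these cells in the levels of S100b and the other members was not tested.

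The first question of the design is whether the collagen domain construct changed astrocyte genes relative to PBS. None of the 32 members passed the threshold (adjusted p under 0.05, edgeR quasi-likelihood test with Benjamini-Hochberg adjustment over 19145 genes), and neither did any other gene (0.0%). At an unadjusted p under 0.05 stood 1 member, Lcn2, and 1.85% of all genes; DESeq2 called 0 genes. The log2 fold changes of collagen domain over PBS had a median of 0.01 over the identity genes, of which 9 of 15 were above 0, and 0.06 over the reactivity genes, of which 10 of 17 were. Over all genes tested the median was 0.00 and 50.1% were above 0.

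Identity genes were estimated closely. Their log2 fold changes ran from -0.21 to 0.15, with SEs of 0.06 to 0.20. Aqp4 differed by -0.03 (SE 0.18), Aldh1l1 by 0.01 (SE 0.08), Slc1a2 by 0.02 (SE 0.10) and Slc1a3 by 0.04 (SE 0.10). Gjb6 had the smallest p of the identity genes. It was at 73.1, 63.5 and 60.02 CPM in the PBS females, 56.4, 59.2 and 57.5 in the collagen domain females, 54.7, 53.7 and 86.0 in the PBS males and 46.8, 62.6 and 55.7 in the collagen domain males. The difference was -0.21 (SE 0.11, unadjusted p = 0.0929), and the treatments overlapped, with PBS male 3 highest and collagen domain male 1 lowest. Without PBS male 3 it was -0.09.

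Reactivity genes spread more widely. Lcn2 was at 0.146, 0.250 and 0.0943 CPM in the PBS females, 0.348, 0.151 and 0.116 in the collagen domain females, 0.110, 0.118 and 0.314 in the PBS males and 0.147, 6.17 and 0.532 in the collagen domain males. Its log2 fold change of 2.28 (SE 0.98, unadjusted p = 0.0387) rested on collagen domain male 2 and was 0.62 without that library. Sphk1, the kinase that makes sphingosine-1-phosphate, was at 4.68, 3.87 and 3.94 CPM in the PBS females, 4.61, 5.42 and 3.94 in the collagen domain females, 4.04, 3.93 and 3.30 in the PBS males and 3.44, 4.80 and 4.97 in the collagen domain males. It differed by 0.19 (SE 0.12, unadjusted p = 0.120) and the treatments overlapped. Gfap differed by -0.32 (SE 0.24), which became -0.05 without PBS male 3. Vim differed by -0.09 (SE 0.20) and Serpina3n by -0.14 (SE 0.17).

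The other reactivity genes lay within about their SEs of 0 or a little beyond. Osmr, the receptor for oncostatin M, differed by 0.23 (SE 0.19), and by 0.05 without collagen domain male 2, and Timp1 by 0.22 (SE 0.26). Cp, the copper-carrying ferroxidase ceruloplasmin, differed by 0.08 (SE 0.14), Steap4 by 0.27 (SE 0.32) and S1pr3, a sphingosine-1-phosphate receptor, by 0.06 (SE 0.11). Cd44, a hyaluronan receptor, differed by -0.20 (SE 0.22), Cd109, a membrane protein that binds TGF-beta, by -0.16 (SE 0.15) and Tm4sf1, a membrane protein that endothelial cells also carry, by -0.07 (SE 0.11). Ggta1, a glycosyltransferase, differed by -0.04 (SE 0.08), Amigo2 by 0.07 (SE 0.07), Emp1, an epithelial membrane protein, by 0.05 (SE 0.14) and Ptx3 by 0.20 (SE 0.28). None of these passed the test.

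**Figure D3:**
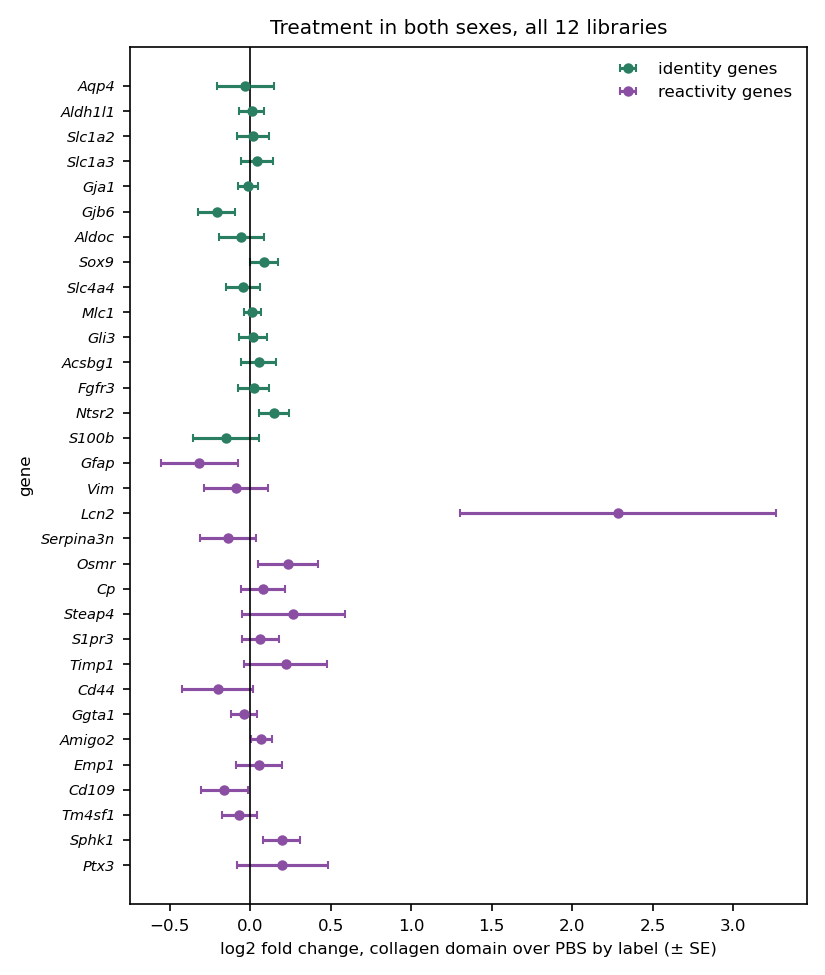
Log2 fold change of collagen domain over PBS by label (x axis) for the 32 members (y axis), in both sexes and all 12 libraries, with bars for the SE; none passed the test. Identity genes lie close to 0 and Lcn2, which rests on 1 library, lies far to the right.

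Tissue makeup and labels were each taken into account in turn. With the cerebellum and hindbrain score as a covariate the median SE of the members went from 0.12 to 0.10, and Lcn2 (2.45), Osmr (0.35) and Acsbg1 (0.13) had an unadjusted p under 0.05, as did 5.42% of all genes in that fit, with no member past the adjusted threshold. Within the 5 high libraries Gfap differed by -0.36 and within the 7 low ones by -0.03. PBS male 3 is among the high ones: the other 4 were at 214 and 223 CPM with PBS and at 248 and 209.6 with the collagen domain. Without the 4 libraries whose C1qtnf3 reads went against their treatment label, Gfap differed by -0.26, Vim by 0.05, Aqp4 by 0.15 and Serpina3n by -0.08, and again no member passed.

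Within females 0 members and 0 genes passed (edgeR), with 0 members and 1.46% of genes at an unadjusted p under 0.05 and 0 genes called by DESeq2. Identity genes had a median log2 fold change of -0.07, with 2 of 15 above 0, and reactivity genes of -0.01, with 7 of 17 above 0, beside -0.01 over all genes. Without the 4 libraries against the treatment label, 3 of them labelled female, these medians were 0.17 and 0.26, but female 2, a high library of the tissue split, was then the only collagen domain female and was assumed to vary like the other groups. Ptx3 had the smallest p among the members. It was at 0.292, 0.291 and 0.226 CPM in the PBS females, 0.348, 0.583 and 0.349 in the collagen domain females, 0.199, 0.447 and 0.523 in the PBS males and 0.270, 0.396 and 0.288 in the collagen domain males. All 3 collagen domain females lay above all 3 PBS females, at few reads, and the share of all genes so separated is not given here. The difference in females was 0.66 (SE 0.37). Without collagen domain female 2 it was 0.37.

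Emp1 was at 3.24, 3.37 and 3.74 CPM in the PBS females, 2.69, 2.44 and 3.52 in the collagen domain females, 2.74, 2.59 and 2.33 in the PBS males and 2.90, 3.75 and 3.26 in the collagen domain males. It differed in females by -0.26 (SE 0.16), by -0.15 without collagen domain female 2 and by -0.43 without female 3, and the groups overlapped. Cd44 was at 5.72, 4.96 and 5.55 CPM in the PBS females, 2.99, 5.96 and 2.89 in the collagen domain females, 3.03, 4.28 and 6.33 in the PBS males and 4.10, 5.85 and 4.15 in the collagen domain males. It differed by -0.45 (SE 0.31), with 2 collagen domain females below all PBS females and the third, female 2, above them. Without female 2 the difference was -0.88, and without collagen domain female 1 or 3 it was -0.29 or -0.27.

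Within males 0 members and 0 genes passed by edgeR, and DESeq2 called 3 genes, none of them a member. At an unadjusted p under 0.05 stood 4 members (Ntsr2, Lcn2, Emp1 and Osmr) and 1.7% of genes. The median was 0.08 over identity genes (11 of 15 above 0) and 0.04 over reactivity genes (11 of 17 above 0), beside 0.01 over all genes. Ntsr2 was at 75.9, 73.3 and 62.6 CPM in the PBS females, 63.5, 78.3 and 60.2 in the collagen domain females, 61.1, 62.6 and 61.7 in the PBS males and 84.3, 78.3 and 76.1 in the collagen domain males. Its difference in males was 0.36 (SE 0.10, unadjusted p = 0.00475), and all 3 collagen domain males lay above all 3 PBS males. Emp1 differed by 0.37 (SE 0.16), again with all 3 collagen domain males above all 3 PBS males. PBS male 1 went against its treatment and sex labels and collagen domain male 3 against its sex label. Both separations are therefore between labels. The share of all genes that separate in this way is not given here, so neither separation is read as a response. Lcn2 differed by 3.67 (SE 1.15), which became 0.94 without collagen domain male 2. Osmr differed by 0.54 (SE 0.24), which became 0.20 without the same library, and Gfap by -0.48 (SE 0.35), which became 0.09 without PBS male 3.

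The difference between the sexes in the response was tested as an interaction. It called 0 members and 0 genes by edgeR and 1 gene, not a member, by DESeq2, with 2 members (Ntsr2 and Emp1) and 1.37% of genes at an unadjusted p under 0.05. The male response minus the female response was 0.43 (SE 0.15) for Ntsr2, 0.63 (SE 0.23) for Emp1 and 3.34 (SE 1.75) for Lcn2, for which it was 0.62 without collagen domain male 2. Without the 4 libraries against the treatment label it was 0.19 for Ntsr2 and 0.95 for Emp1.

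Between males and females 0 members and 0 genes passed by edgeR, and 8 genes, none a member, by DESeq2. Osmr and Lcn2 were the 2 members at an unadjusted p under 0.05, beside 1.97% of genes. Osmr was at 2.78, 3.39 and 3.43 CPM in the PBS females, 2.94, 3.28 and 2.89 in the collagen domain females, 3.36, 2.73 and 4.47 in the PBS males and 3.93, 7.22 and 4.17 in the collagen domain males. It was 0.44 (SE 0.19) higher in males on the log2 scale, and 0.26 higher without collagen domain male 2. Lcn2 differed by 2.16 (SE 0.98) and by 0.43 without that library. Ggta1 was at 4.13, 4.27 and 4.76 CPM in the PBS females, 3.99, 4.43 and 4.01 in the collagen domain females, 4.53, 4.57 and 4.89 in the PBS males and 4.32, 4.31 and 5.39 in the collagen domain males. It differed by 0.13 (SE 0.08), and by 0.08 without collagen domain male 3, and the sexes overlapped. Since 4 libraries went against their sex label, this comparison is one of labels.

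The widest gaps between a library and the next were those of Lcn2 (3.43), Gfap (0.86) and Osmr (0.69) on the log2 scale. PBS male 3 had the highest value of 10 of the 32 members, while it was highest for 17.3% of all genes tested, collagen domain male 2 that of 8, against 9.87% of genes, and collagen domain female 2 that of 7, against 13.9%. Many of these values were only a little above the next library, and the 5 high libraries of the tissue split together held the highest value of 27 members and of 52.3% of genes.

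Gfap was at 157, 214 and 223 CPM in the PBS females, 146, 248 and 142 in the collagen domain females, 208, 159 and 449 in the PBS males and 169, 209.6 and 206 in the collagen domain males. PBS male 3 stood apart from the other 11 libraries, of which collagen domain female 2 was next. Serpina3n was at 13.7, 16.7 and 20.9 CPM in the PBS females, 12.4, 18.7 and 13.7 in the collagen domain females, 15.2, 12.5 and 26.3 in the PBS males and 16.6, 17.2 and 17.3 in the collagen domain males, and the same library was highest, followed by PBS female 3. Gjb6 was also highest there. Of the 15 identity genes 6 were highest in it, while Slc1a2 was second lowest and Gli3 lowest there (6.31 CPM). The 15 summed to 4509 CPM, within the 3830.5 to 4973 of all libraries. Of the 17 reactivity genes 4 were highest in it. Emp1 (2.33 CPM), Sphk1 (3.30) and S1pr3 (4.89, almost level with collagen domain male 2) were lowest there.

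Other genes of that library, chosen after their values were seen, were also high. App, the amyloid precursor protein gene, was at 2517 CPM against 1274 to 1512 in the others. Tyrobp, a signalling adaptor of microglia, was at 37.3 against at most 17.6, and Clec7a, a receptor of activated microglia, at 2.98 against at most 0.606. The 10 microglia markers, none at 0, summed to 363 CPM there and to 254 to 318 in the other 11. Their part in the level of Gfap was not tested.

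Lcn2 and Osmr were highest in collagen domain male 2. Lcn2 had 265 reads there, 6.17 CPM, against at most 0.532 CPM in the other 11 libraries, and this was the widest gap to the next library of all 1890 genes highest in it. Osmr was at 7.22 CPM, with PBS male 3 next at 4.47. Cp and Emp1 were also highest in this library, at 21.4 and 3.75 CPM, with the next library at 18.9 and 3.74. Gfap at 209.6 CPM and Serpina3n at 17.2 lay inside the range of the others.

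Genes of neutrophils were also high in collagen domain male 2. The 5 neutrophil genes S100a8, S100a9, Ngp, Camp and Retnlg summed to 24.8 CPM there and to 0.605 to 5.57 in the other 11 libraries, and each was highest there. The whole list of 10 blood and neutrophil genes, none at 0 in all libraries, summed to 758 CPM, inside the 332 to 774 of all libraries. Lrg1, a secreted glycoprotein of inflamed endothelium chosen after its values were seen, was at 5.89 CPM against at most 1.49. Vwf and Slc38a5, chosen in the same way, were also highest there, at 27.5 CPM against at most 13.8 and at 9.62 against at most 3.17. The 10 endothelial markers, at 233 CPM, were level with the next library, at 232. The 10 mural markers, at 139 CPM, were inside the 133 to 194 of all libraries. Neutrophils and endothelial cells also make Lcn2, and their part in its level was not tested.

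**Figure D4:**
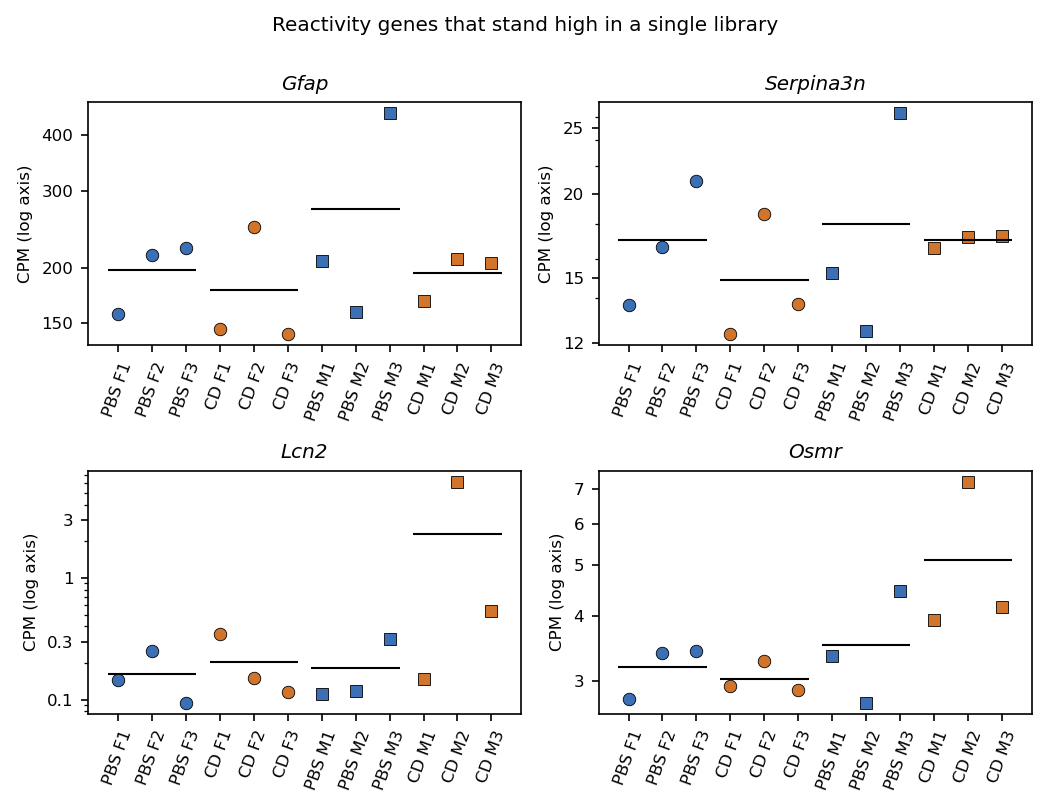
CPM on a log axis (y) of 4 reactivity genes in the 12 libraries (x; CD, collagen domain; F, female; M, male, by label), with 1 point per library and a black line at the mean of each group of 3. Gfap and Serpina3n are highest in PBS M3, and Lcn2 and Osmr in CD M2.

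The signalling genes upstream of reactivity were measured as a list of 19, of which 16 passed the filter. For treatment in both sexes 0 of the 16 passed, 11 were above 0 and their median log2 fold change was 0.10. Lifr, the receptor for leukaemia inhibitory factor, had the smallest p with -0.22 (SE 0.08), and Socs3, a feedback inhibitor that STAT3 induces, was next with 0.21 (SE 0.12). Of 30 further astrocyte identity genes 0 passed, 14 were above 0 and their median was 0.00. Sox2, a transcription factor of glia and neural stem cells, had the smallest p with 0.14 (SE 0.06), and Cldn10, a claudin, was next with -0.17 (SE 0.09).

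Further reactivity genes, listed as pan-reactive, as raised after inflammation (A1) or as raised after ischaemia (A2), did not pass either. Their medians were -0.03 over 3, -0.11 over 9 and -0.13 over 5 genes tested. Hspb1, a small heat shock protein, differed by 0.15 (SE 0.16), Fkbp5, a glucocorticoid-induced immunophilin, by -0.11 (SE 0.07) and Clcf1, a cytokine of the CNTF family, by 0.33 (SE 0.22).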

How the data were processed

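Poly(A) RNA of frozen mouse brain, 12 libraries in 4 groups of 3, was sequenced. The table deposited by the authors holds raw read counts per Ensembl gene ID; per the submitters' processing notes, STAR, DESeq2 and the build GRCm39 were used, without versions. Whether strand was used, and how reads shared with paralogs or overlapping genes were counted, is not given in the sources used here. Symbols and exon lengths came from GENCODE M21, which named 42462 of 43629 IDs; the others held 0.144% of reads and were kept. Libraries of one group differed beyond counting noise (chi-square per degree of freedom 8.56 to 71.6 over 12 pairs).

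The test was that of edgeR 4.0.16 in R 4.3.3: filterByExpr on the 4 groups, TMM, robust quasi-likelihood F-tests, two-sided, adjusted by Benjamini-Hochberg over all 19145 genes, threshold 0.05, checked on simulated data. Both-sex treatment and sex came from an additive fit, the rest from a fit of the 4 groups. Log2 CPM used a prior count of 2. Exons were the union per gene. The common biological coefficient of variation was 0.178.

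The members and lists were chosen with earlier results of these data known. Per-library values are given for 8 members set by name, the 3 of smallest p per comparison, the 5 of widest range at a mean of 1 CPM or more, and up to 6 apart across the tissue split; other lists name up to 4 genes of smallest p. Alternatives were DESeq2 1.42.0, relative log expression factors, no filter, a replicate block, a tissue covariate, no sex term, fits of each side of the tissue split, and leaving out single libraries or those against a label. Plots used matplotlib 3.10.9 (Python 3.11.15). Results for 2 listed genes that are not members are not reported here.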

Additional observations from a re-analysis of the deposited data

Results flagged for a closer look

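Each member was examined among the 6 libraries of each treatment label for a highest or lowest value far from the rest (Dixon's test). Of 64 such groups 5 met this, and chance alone would give about 1 in 20, or 3.2, if values were independent and normally distributed. The groups share the same libraries, which differ in tissue makeup, so 3.2 is only a rough guide.

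Gfap in PBS male 3 was at 449 CPM, against 157 to 223 in the other 5 PBS libraries. Lcn2 in collagen domain male 2 was at 6.17 CPM, against 0.116 to 0.532 in the other collagen domain libraries. Osmr in the same library was at 7.22 CPM, against 2.89 to 4.17. Ggta1 in collagen domain male 3 was at 5.39 CPM, against 3.99 to 4.43. Cd109 in collagen domain female 2 was at 3.48 CPM, against 2.14 to 2.55. PBS male 3 was also high in microglial genes and collagen domain male 2 in neutrophil genes, as given above. The part of those cells was not tested.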

How the results depend on the processing

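No member passed the threshold under any alternative (lowest adjusted p 0.478, DESeq2 in males); of 3136 member values under alternatives, 388 had the other sign and 96 moved by over 1 SD. Genes called over the whole table, 0 in each comparison, became 3 in males, 1 for the interaction and 8 between the sexes with DESeq2. Without the 4 libraries against the treatment label they were 2 in both sexes, 1 in females, 1 in males and 1 between the sexes, and without the 5 against either label 2, 1, 1 and 8. Leaving out single libraries gave 0 to 1 in males (1 without collagen domain female 3) and 0 to 5 between the sexes (5 without PBS male 3). In females the median log2 fold change of identity genes was 0.17 and 0.16 without the 4 and the 5 libraries, and of reactivity genes 0.26 in both cases, each resting on 1 remaining collagen domain female. For the interaction the identity median was 0.125 with all libraries, and -0.16 and -0.12 without the 4 and the 5. In males the identity median was -0.061 without collagen domain male 2 and ran from -0.061 to 0.13 over the fits without 1 library. The cause of these shifts was not tested. The members apart across the tissue split numbered 9 with relative log expression factors, 9 with no filter and 10 to 12 without 1 library.

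Replicate numbers did not pair the libraries across all groups: 7 of 18 same-numbered pairs had a correlation of deviations above 0.1 (range -0.38 to 0.57). Among them were all 3 pairs of collagen domain females and males (0.30, 0.57 and 0.30), though in no other combination of groups were all 3 pairs above it. In both of these groups library 2 was high in the tissue split and libraries 1 and 3 were low. The part of the split in these correlations was not tested. In all, 6 of 12 libraries correlated best with one of their own number. With the replicate block 0 members and 0 genes were called in all 5 comparisons, as without it. Members with few reads (Lcn2, Steap4, Timp1 and Ptx3) were limited by depth.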
